A study of Mus musculus with 10 samples.

Results

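The genes described here are 53 mouse genes that act in mitosis, picked by gene symbol for their known function out of 31053 genes counted in every section. They fall into 9 functional groups, from the kinases that start mitosis to the proteins that pack chromosomes. Expression was measured on 10x Genomics Visium slides, where polyadenylated RNA from a thin frozen section binds to arrayed spots that each carry their own barcode. Each molecule is counted once through a unique molecular identifier (UMI). Several cells, of one or more types, can lie over a single spot. There were 10 sections of 7 mouse liver tissues: NEJ634, NEJ723, NEJ687, NEJ638, NEJ654 and NEJ677 with 1 section each, and NEJ146 with 4 adjacent sections of the same tissue.

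The labels call all 10 sections hepatoblastoma and give no genotype, age or treatment for a single tissue, although the preparation of NEJ146 is given as a tumour and the protocol text of the other 6 tissues names both tumour and normal liver. The study worked with ABC-Myc mice, in which a Cre recombinase driven by the albumin promoter switches on a human MYC transgene in hepatocytes, on a C57BL/6J background, and with healthy mouse livers. That transgene was not counted as a gene in these files. The study's text counts 4 ABC-Myc tumours and 3 healthy livers in its spatial work. It names NEJ634, NEJ723, NEJ687 and NEJ146 as tumours, and these 4 are called the named tumours below. By these counts NEJ638, NEJ654 and NEJ677 are its healthy livers, though the labels do not say so. In NEJ638, NEJ654 and NEJ677, Afp, the fetal albumin-like protein that marks hepatoblastoma, was at 9.63, 3.79 and 4.96 UMIs per 1000000 UMIs (CPM), against 2023 ± 357 CPM (SD, n = 4 sections) in NEJ146 and 3280 to 4248 CPM in the other named tumours. Igf2 and Dlk1 were at most 0.255 and 0.165 CPM in those 3 tissues, against at least 81.9 and 26.9 CPM in the named tumours. The other 2 markers did not separate the tissues, since NEJ638 held Gpc3 at 5.12 CPM, above 4.06 CPM in NEJ687 and 3.59 CPM in NEJ146, and Epcam at 5.08 CPM, above 2.09 CPM in NEJ687. Thus 3 of the 5 markers went against the hepatoblastoma label of those 3 tissues. Each tissue was kept as its own group, and sets of tissues were not compared by their means. A gene's mean over the 7 tissues served to filter genes and to centre the colours in the map of genes by section.

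Mitosis separates the copied chromosomes into daughter cells. Cyclin B with the kinase Cdk1 drives entry, kinetochores tie chromosomes to spindle microtubules, the spindle checkpoint holds anaphase back until every chromosome is attached, and the anaphase-promoting complex then marks cyclin B and securin for destruction. Many of these genes are transcribed late in the cell cycle through a shared promoter element, the cell cycle genes homology region (CHR), often near CCAAT boxes. In adult liver most hepatocytes rest outside the cycle, and the Ki-67 protein, the product of Mki67, is stained to mark dividing cells.

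Tissue spots held 39280329 to 117077925 UMIs per section, of which 10569 (NEJ677) to 221459 (NEJ146 section 3) came from the mitosis genes. All 53 genes passed the filter of a mean of 1 CPM over the 7 tissues, which 12648 genes passed in all. With 1 section there is no replicate, so the 95% exact Poisson intervals given here cover counting error only, and the SD of NEJ146 covers adjacent sections of 1 tissue. Spots outside the called tissue held 6.81% to 43.0% of the UMIs of the 6 single-section tissues and were not used. For single mitosis genes the upper limit lay at most 7.45%, 8.87% and 9.13% above the value in NEJ634, NEJ723 and NEJ687, and up to 58.0% above it in NEJ677, where the rarest gene, Bub1, had 18 UMIs. NEJ146 was labelled as total RNA and counted with another software release than the other 6 tissues, which were labelled as polyA RNA, so tissue and batch cannot be told apart for NEJ146. Fewer dividing cells and less RNA of these genes per dividing cell cannot be told apart in spots or sections.

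The summed level of the 53 genes was highest in NEJ634 and lowest in NEJ677. NEJ634 stood at 3204 CPM (95% interval 3189 to 3219), NEJ723 at 2884 CPM (2868 to 2900), NEJ687 at 2114 CPM (2103 to 2126) and NEJ146 at 1932 ± 112 CPM (SD, n = 4), whose sections read 1819, 1931, 1892 and 2085 CPM. NEJ638 stood at 749.8 CPM (742 to 757), NEJ654 at 389 CPM (383 to 395) and NEJ677 at 269 CPM (264 to 274). Neighbours in this order differed beyond counting error, but the step from NEJ687 to NEJ146 depended on the scaling. With median-of-ratios size factors in place of total UMIs, NEJ146 was at 1986 and NEJ687 at 1837, while the other 5 tissues kept their places. The labels make no tissues replicates of each other, so the steps have no error beyond counting.

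The lowest named tumour stood 2.57-fold above the highest of the other 3 tissues, a gap of 1.36 on the log2 scale of CPM plus 1. From the top to the bottom of the order, NEJ634 was 11.9-fold above NEJ677. The 3 tissues with almost no Afp also differed among themselves, NEJ638 being 2.79-fold above NEJ677, and NEJ638 was the highest of the 3 for all 53 genes, which held for 60.4% of all genes.

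**Figure D1:**
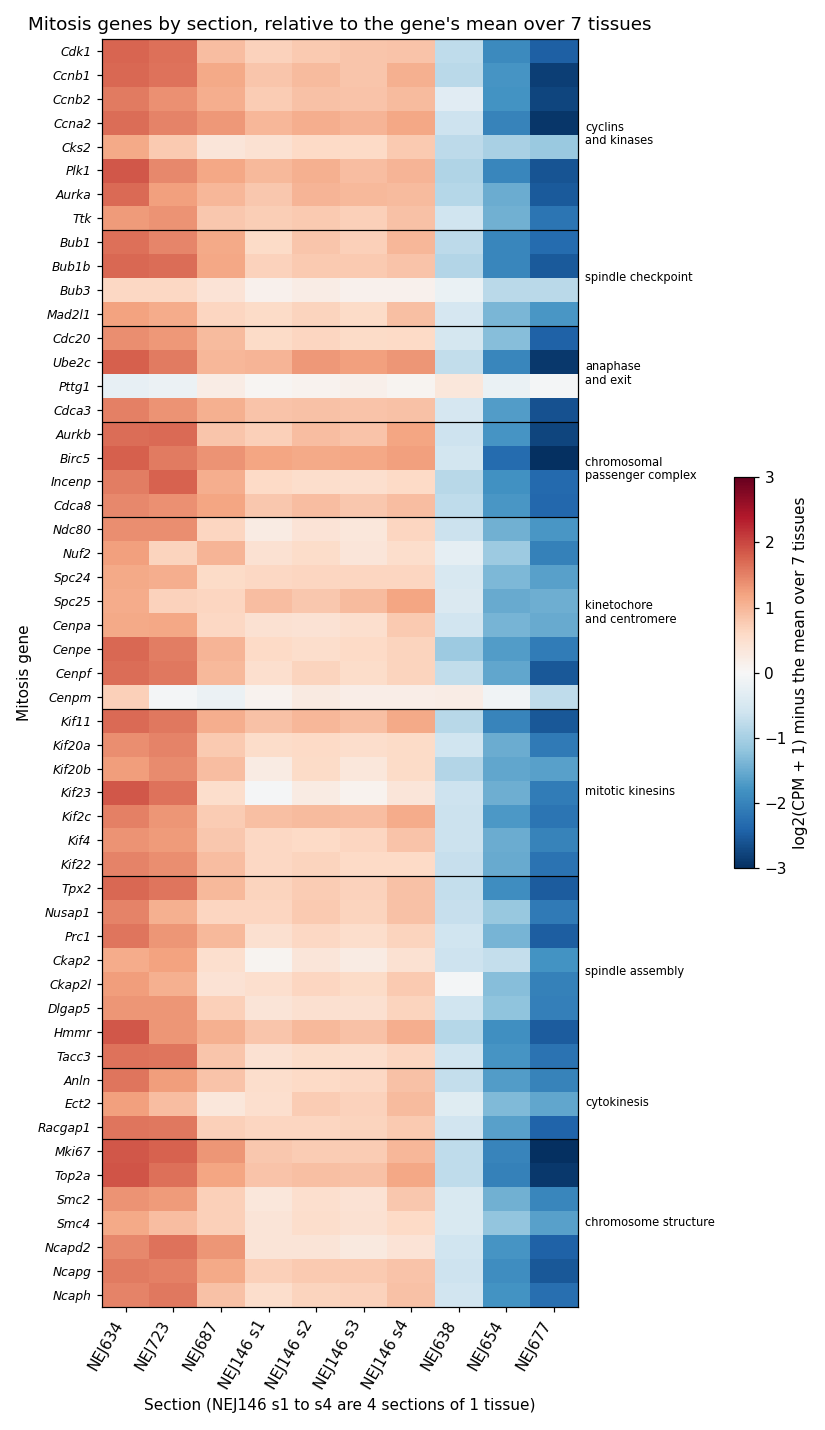
Each row is 1 mitosis gene and each column 1 section, with genes grouped by function; colour gives log2(CPM + 1) minus the gene's mean over the 7 tissues. NEJ634 and NEJ723 are red and NEJ654 and NEJ677 blue in nearly every row, and Pttg1, Cenpm and Bub3 are the palest rows.

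For 43 of the 53 genes the lowest of the 4 named tumours was at least 2-fold above the highest of the other 3 tissues, a separation that 8.47% of all genes showed. With no threshold on the size it was 51 of 53, against 42.1%. The reverse separation was found for 0 of 53, and for 3.97% of all genes. The median gap of the mitosis genes was 1.32 on the log2 scale, and that of all genes was -0.15. Dividing by median-of-ratios size factors instead of total UMIs moved the median of all genes to -0.45 and left 37 genes past 2-fold, against 5.84% of all genes, and with 5 in place of 1 CPM as pseudocount 27 did, against 4.64% of all genes.

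All of the kinases and cyclins of mitotic entry, 8 of 8, were past 2-fold. Cks2, a small subunit bound by Cdk1 and the mitosis gene with the most UMIs, was at 245, 194, 144 and 171 ± 16.1 CPM in NEJ634, NEJ723, NEJ687 and NEJ146, against 64.0, 56.3 and 50.7 CPM for NEJ638, NEJ654 and NEJ677. The values of other genes are given in this order of tissues. The 3 lower tissues of Cks2 were close together, which set it apart from Cdk1 itself, at 164, 154, 92.5 and 84.4 ± 4.38 CPM in the named tumours and 28.1, 12.1 and 8.10 CPM in the others. Plk1, the polo-like kinase that acts from centrosome maturation to cytokinesis, had the widest gap of all 53 genes. Its levels were 60.2, 44.7, 36.7 and 32.4 ± 1.34 CPM against 7.97, 3.29 and 1.78 CPM, a 3.72-fold gap. The gaps of the other members of this group, Ccnb1, Ccnb2, Ccna2, Aurka and Ttk, lay between 1.21 and 1.79 on the log2 scale.

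Among the 4 spindle checkpoint genes, 3 were past 2-fold. The checkpoint kinases Bub1 and Bub1b had gaps of 1.57 and 1.66, and Mad2l1, whose product captures the anaphase activator Cdc20, one of 1.15. Bub3, a checkpoint protein that also has roles outside mitosis, missed the threshold with 51.5, 51.7, 44.3 and 36.9 ± 1.19 CPM in the named tumours and 28.8, 18.4 and 18.4 CPM in the others, a 1.27-fold gap. All 4 named tumours were still above the other 3 tissues for Bub3, but NEJ654 and NEJ677 did not differ beyond counting error.

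The genes of anaphase and mitotic exit held the sharpest exception. Ube2c, the ubiquitin-conjugating enzyme that serves the anaphase-promoting complex, was at 190.1, 161, 109 and 126 ± 11.65 CPM against 32.0, 13.1 and 6.39 CPM, a 3.33-fold gap. Cdc20 and Cdca3 also passed 2-fold, with gaps of 1.13 and 1.38. Pttg1, which encodes securin, the inhibitor of the protease that cuts sister chromatids apart, was at 25.9, 27.1, 36.4 and 33.2 ± 0.952 CPM in NEJ634, NEJ723, NEJ687 and NEJ146. The values of NEJ638, NEJ654 and NEJ677 were 39.2, 26.7 and 29.5 CPM. The 2 sets of tissues overlapped, NEJ638 was the highest of all 7, and NEJ634, the highest tissue for 40 of the 53 genes among the named tumours, was the lowest of all 7. NEJ634 did not differ from NEJ654 and NEJ723 beyond counting error for Pttg1.

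The 4 chromosomal passenger genes, whose products correct faulty attachments and later direct cytokinesis, were past 2-fold together. Birc5 (survivin) was at 185, 157, 137 and 121 ± 3.22 CPM against 36.0, 9.95 and 5.58 CPM. Aurkb, Incenp and Cdca8 had gaps of 1.45, 1.40 and 1.63. As a sum this group spanned the widest range of the 9, from 342 CPM in NEJ634 to 12.7 CPM in NEJ677, a 27.0-fold difference.

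Of 8 kinetochore and centromere genes, 6 were past 2-fold. Spc24, a subunit of the Ndc80 complex that holds microtubule ends, was at 143, 139, 96.3 and 100.5 ± 0.781 CPM against 45.5, 24.7 and 20.04 CPM. The others past 2-fold were Spc25, Ndc80, Cenpa, Cenpe and Cenpf, with gaps of 1.07 to 1.69. Nuf2, another subunit of the Ndc80 complex, was at 18.4, 12.2, 15.6 and 10.5 ± 0.642 CPM against 5.88, 2.85 and 1.02 CPM, a 1.67-fold gap. Cenpm, a centromere protein, overlapped as Pttg1 did. It was at 36.1, 20.7, 19.0 and 24.9 ± 1.14 CPM in the named tumours and 25.6, 20.2 and 12.3 CPM in the others, so that NEJ638 lay above NEJ723, NEJ687 and the mean of NEJ146.

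The mitotic kinesins, motors that build the spindle or carry chromosomes along it, were past 2-fold in 6 of 7. Kif22, which pushes chromosome arms, was at 44.3, 41.2, 29.8 and 23.8 ± 0.582 CPM against 8.91, 4.64 and 2.44 CPM. Kif11, the motor that pushes spindle poles apart, had the second widest gap of the 53, with 30.02, 27.8, 19.3 and 17.9 ± 1.59 CPM against 4.34, 1.41 and 0.637 CPM. Kif23, a kinesin of the central spindle, missed the threshold at 30.5, 25.7, 11.4 and 8.83 ± 1.11 CPM against 4.67, 2.17 and 1.02 CPM, and it had the widest gap of all 53 within the named tumours.

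Of the spindle assembly genes, 6 of 8 were past 2-fold. Tpx2, which targets Aurora A to the spindle, was at 49.6, 45.8, 28.9 and 24.8 ± 1.63 CPM against 8.36, 3.20 and 1.71 CPM. Hmmr, a microtubule-binding protein of the spindle, had the third widest gap at 3.49-fold, with 48.3, 32.6, 27.1 and 25.0 ± 2.06 CPM against 6.45, 2.73 and 1.37 CPM. Ckap2 and Ckap2l, spindle proteins of 1 family, missed the threshold with gaps of 0.91 and 0.48. Ckap2 was at 24.8, 26.3, 15.8 and 13.6 ± 1.66 CPM against 6.78, 6.26 and 2.44 CPM. For Ckap2l it was NEJ638, at 10.6 CPM against 3.93 and 1.93 CPM in NEJ654 and NEJ677, that narrowed the gap to the named tumours, which read 27.9, 24.1, 15.2 and 17.5 ± 1.56 CPM.

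Of the 3 cytokinesis genes, 2 passed 2-fold. Racgap1, a partner of Kif23 in the central spindle, was at 61.6, 61.0, 32.6 and 32.2 ± 1.64 CPM against 12.7, 5.65 and 2.90 CPM. Anln, which crosslinks the contractile ring, had a gap of 1.38, and Ect2, which acts at the cleavage furrow, one of 0.72, with 20.2, 16.3, 10.5 and 14.1 ± 1.98 CPM against 5.98, 2.64 and 2.06 CPM. Among 7 genes of chromosome structure, 5 passed. Mki67, which coats mitotic chromosomes, was at 168, 157, 116 and 81.7 ± 6.33 CPM against 26.3, 10.6 and 4.56 CPM. Top2a, the topoisomerase that untangles sister chromatids, was at 125, 107, 76.1 and 65.1 ± 7.11 CPM against 19.0, 7.37 and 3.62 CPM. The condensin subunits Smc4 and Ncapd2 lay just under the threshold at 0.96 and 0.98 and Smc2 just above it, with a 2.002-fold gap. Smc4 was at 52.4, 45.3, 38.5 and 33.1 ± 2.15 CPM against 16.5, 9.63 and 6.85 CPM. Ncapd2 was at 40.3, 46.1, 37.2 and 18.5 ± 0.679 CPM against 8.93, 3.44 and 1.83 CPM, and NEJ146 was its lowest named tumour by far.

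**Figure D2:**
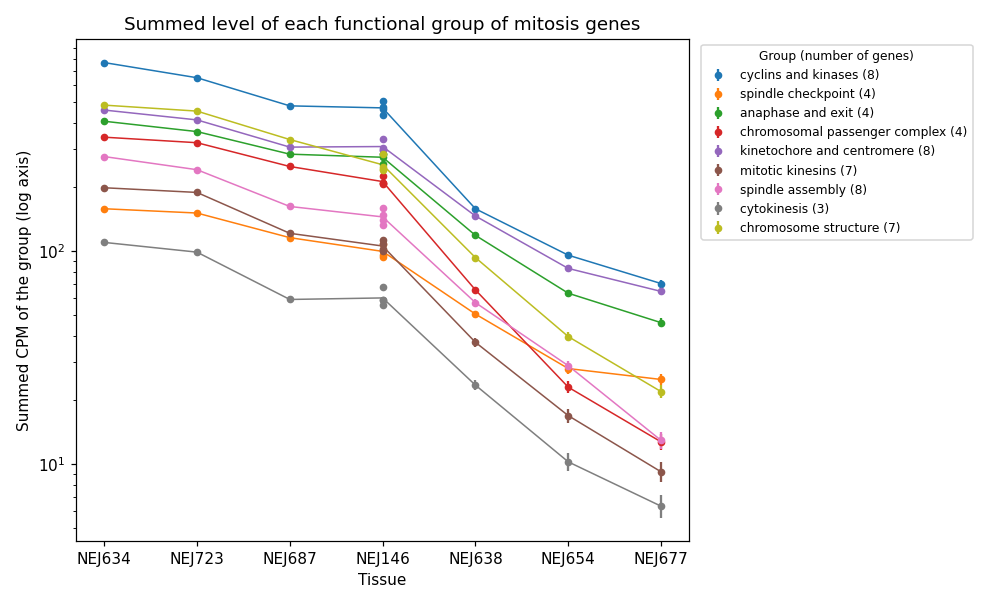
Summed CPM of each functional group (log axis) by tissue, with 95% exact Poisson intervals as bars where they are larger than the point, 4 points for the sections of NEJ146 and a line through the tissue means. All 9 groups are highest in NEJ634 and lowest in NEJ677, and the chromosomal passenger complex spans the most, from 342 to 12.7 CPM; the kinetochore and cytokinesis groups are slightly higher in NEJ146 than in NEJ687.

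Within the named tumours, the genes also kept a common order. NEJ634 and NEJ723 were set against NEJ687 and NEJ146 because the study reported that order in these tissues for stem cell markers and, as a tendency, Mki67. The study reported the same order for the C2 gene signature, that of a hepatoblastoma class it calls highly proliferative. Mki67 is 1 of the 53 genes, so the split was not chosen independently of them. The lower of NEJ634 and NEJ723 was at least 1.2-fold above the higher of NEJ687 and NEJ146 for 39 of 53 genes, against 16.3% of all genes, and 1 gene, Pttg1, was past 1.2-fold the other way, against 3.43%. With no threshold on the size the count was 49 of 53, against 39.7% of all genes. NEJ634 was highest for 40 of 53 (31.1% of all genes) and NEJ146 lowest for 41 (56.0%). The order NEJ634, NEJ723, NEJ687, NEJ146 was found in 29 genes, or 54.7%, against 10.6% of all genes. Kendall's coefficient of concordance over the 4 tissues, which is 1 when every gene ranks them alike, was 0.76 for the 53 genes and 0.15 for all 12648. Some of the other gene lists used below ranked the tissues as much alike, in their own orders. It was 0.76 for 56 further mitosis genes and 8 hepatocyte genes and 0.80 for 10 erythroid genes. Neutrophil lineage and macrophage genes had 0.90 and bile duct genes 0.91. The remaining lists lay between 0.075 and 0.68, with 0.52 for DNA replication genes.

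How firmly that second separation stands depended on the scaling. With median-of-ratios size factors 24 of 53 genes were past 1.2-fold, against 7.26% of all genes, and the gap of the summed level fell from 0.45 to 0.23 on the log2 scale. Without NEJ146, which comes from another batch, NEJ634 and NEJ723 were at least 1.2-fold above NEJ687 for 41 genes (20.8% of all genes), with any gap for 51 (45.6%).

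The 3 widest gaps within the named tumours were those of 2 central spindle genes and a spindle gene. Kif23 led with 2.15-fold, followed by its partner Racgap1 with 1.84-fold and by Tacc3, a protein that steadies spindle microtubules, with 1.73-fold. For Tacc3 the values were 43.5, 43.4, 24.6 and 20.1 ± 1.12 CPM in NEJ634, NEJ723, NEJ687 and NEJ146, and 8.50, 3.22 and 2.14 CPM in the other tissues. All 7 kinesins were past 1.2-fold, and so were 7 of 8 spindle assembly genes, 5 of 8 cyclins and kinases and 2 of 4 passenger genes. Mki67 and Top2a, with gaps of 0.44 and 0.49, lay near the median of 0.42.

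Against the common order stood 4 genes, Pttg1 (-0.47), Nuf2 (-0.33), Spc25 (-0.28) and Cenpm (-0.25), for which NEJ634 and NEJ723 were not both above NEJ687 and NEJ146. For Nuf2 the NEJ687 value, 15.6 CPM (14.6 to 16.7), was above the 12.2 CPM of NEJ723 (11.2 to 13.3) beyond counting error. For Spc25, NEJ146 at 61.5 ± 6.99 CPM stood between NEJ634 at 67.8 CPM and NEJ723 at 50.5 CPM. The other Ndc80 subunits went with the majority, Ndc80 itself with a gap of 0.76 and Spc24 with 0.46, so the subunits of this complex did not share 1 order.

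**Figure D3:**
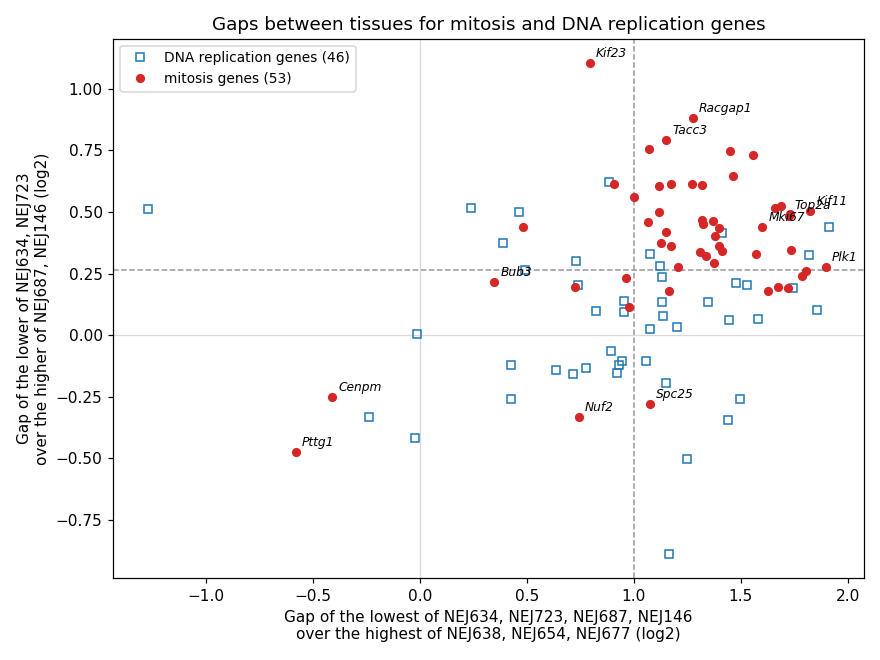
Each point is 1 gene, a mitosis gene (filled circle) or a DNA replication gene (open square); the x axis is the gap of the lowest named tumour over the highest of the other 3 tissues, the y axis that of the lower of NEJ634 and NEJ723 over the higher of NEJ687 and NEJ146, both in log2, with dashed lines at 2-fold and 1.2-fold. Most mitosis genes lie above and to the right of both lines, the replication genes reach as far to the right but lie lower, and Pttg1 and Cenpm fall below 0 on both axes.

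The promoter windows of the genes were read next, to see what these genes share in sequence. RefSeq windows of 300 bases on GRCm38.p6, from 250 before to 50 after each gene's start, were at hand for 45 of the 53 genes. The CHR letters TTTGAA, on either strand, stood in the window of 33 of 45 genes (73.3%), against 20.2% of the 27025 genes with a window. The letters CCAAT, on either strand, stood in 34 of 45 (75.6%), against 41.1%, and both in 29 of 45 (64.4%), against 8.97%. Of 48 further mitosis genes with a window, 23 (47.9%) held TTTGAA, 64.6% CCAAT and 33.3% both. The windows of 37 DNA replication genes held TTTGAA in 5 (13.5%) and CCAAT in 24 (64.9%). TTTGAA stood in 26 of 33 genes past 1.2-fold within the named tumours and in 7 of 12 of the rest, and of the 4 genes that went against the common order Spc25 held it while Pttg1, Nuf2 and Cenpm did not. The windows of 5 genes are shown, with both motifs in capitals: Plk1 and Kif23, which had the widest gap in the 2 comparisons, Mki67, and the exceptions Pttg1 and Nuf2. Plk1 is chr7:122159185-122159484, plus strand, Kif23 chr9:61946750-61947049, minus strand, Mki67 chr7:135716330-135716629, minus strand, Pttg1 chr11:43425932-43426231, minus strand and Nuf2 chr1:169531415-169531714, minus strand, each written in the direction of its gene.
Plk1: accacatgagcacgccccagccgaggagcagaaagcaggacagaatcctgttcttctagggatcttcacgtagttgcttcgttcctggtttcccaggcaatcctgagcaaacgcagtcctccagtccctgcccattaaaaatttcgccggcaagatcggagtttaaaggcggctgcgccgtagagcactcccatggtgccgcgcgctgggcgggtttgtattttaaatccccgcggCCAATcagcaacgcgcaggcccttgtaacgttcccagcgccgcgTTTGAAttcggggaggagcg
Kif23: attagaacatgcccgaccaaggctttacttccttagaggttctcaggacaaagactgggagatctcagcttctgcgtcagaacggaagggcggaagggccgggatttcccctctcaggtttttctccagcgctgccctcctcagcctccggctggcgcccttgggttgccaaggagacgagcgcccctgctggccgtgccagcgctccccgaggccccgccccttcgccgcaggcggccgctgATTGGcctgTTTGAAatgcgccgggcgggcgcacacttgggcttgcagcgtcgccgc
Mki67: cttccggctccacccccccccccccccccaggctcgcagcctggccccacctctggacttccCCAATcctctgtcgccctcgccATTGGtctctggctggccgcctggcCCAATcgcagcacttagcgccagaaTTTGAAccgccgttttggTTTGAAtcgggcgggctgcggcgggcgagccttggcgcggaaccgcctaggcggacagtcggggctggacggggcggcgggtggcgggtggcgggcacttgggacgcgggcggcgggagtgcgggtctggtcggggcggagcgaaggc
Pttg1: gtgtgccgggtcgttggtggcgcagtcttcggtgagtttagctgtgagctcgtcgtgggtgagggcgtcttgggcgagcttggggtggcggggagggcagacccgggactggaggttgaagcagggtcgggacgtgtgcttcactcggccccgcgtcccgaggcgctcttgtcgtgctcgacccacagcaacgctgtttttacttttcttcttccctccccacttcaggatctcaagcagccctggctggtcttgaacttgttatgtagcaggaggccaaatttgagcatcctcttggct
Nuf2: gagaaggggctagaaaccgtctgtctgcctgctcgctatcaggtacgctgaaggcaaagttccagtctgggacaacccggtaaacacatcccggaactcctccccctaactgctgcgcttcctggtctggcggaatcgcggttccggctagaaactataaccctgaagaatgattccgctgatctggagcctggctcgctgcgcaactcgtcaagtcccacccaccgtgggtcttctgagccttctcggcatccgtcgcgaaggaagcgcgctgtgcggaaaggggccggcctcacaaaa
In Plk1 the CCAAT box stands upstream of the TTTGAA, in Kif23 a reversed box (ATTGG) stands shortly before it, and Mki67 holds 2 copies of TTTGAA and 3 boxes, while neither motif occurs in the windows of Pttg1 and Nuf2. Neither motif occurs in those of Tacc3, Birc5, Mad2l1, Nusap1 and Ncaph either, which did not go against the common order. Cenpm, which did, holds CCAAT 2 times but no TTTGAA. The part of these motifs in the order of the tissues was not tested. A match of letters does not show that a factor binds there, and its absence says nothing of elements outside the window.

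Other genes of the cell cycle were set beside the mitosis genes. Among 56 further mitosis genes, 28 were past 2-fold over the other 3 tissues and 31 past 1.2-fold within the named tumours, beside 8.47% and 16.3% of all genes. With 5 in place of 1 CPM as pseudocount, the 28 fell to 8, beside 4.64% of all genes. The widest gaps of the first kind were those of Psrc1 and Cenpt at 2.15 and 2.08. The lowest were those of the kinetochore gene Mis12 at -0.73 and of Pimreg at -0.65. Pimreg, a mitotic gene of the metaphase to anaphase transition, was at 24.8 and 12.8 CPM in NEJ634 and NEJ723 but 1.498 and 1.32 ± 0.099 CPM in NEJ687 and NEJ146, below the 2.64 CPM of NEJ638. Within the named tumours Pimreg thus had the widest gap, 2.47 on the log2 scale, followed by the entry phosphatase Cdc25c at 0.87, and Mis12 at -0.19 and Cenpt at -0.38 had the lowest.

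The DNA replication genes act when DNA is copied, earlier in the cell cycle than mitosis, and were counted in the same way. Of 46 replication genes, 23 were past 2-fold over the other 3 tissues, beside 8.47% of all genes, led by Dut and Rrm2, enzymes of nucleotide supply, with gaps of 1.91 and 1.86, while Mcm10 had the lowest at -1.27. With 5 in place of 1 CPM as pseudocount, the 23 fell to 11, beside 4.64% of all genes. Within the named tumours 12 of 46 (26.1%) were past 1.2-fold, against 39 of 53 mitosis genes (73.6%) and 16.3% of all genes. With median-of-ratios size factors 2 of 46 replication genes and 24 of 53 mitosis genes were past it, against 7.26% of all genes. Rpa3 and Tk1 had the widest gaps there, 0.62 and 0.52. The origin-licensing gene Cdc6 was highest in NEJ687, at 15.9 CPM against 10.6, 8.13 and 7.58 ± 0.481 CPM in NEJ634, NEJ723 and NEJ146, and Pole2 was also highest there, so that these 2 had the lowest gaps, -0.89 and -0.50.

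The balance of the 2 lists also differed between tissues. The mitosis genes summed to 1.42 times the replication genes in NEJ634, and NEJ723, NEJ687 and NEJ146 had ratios of 1.33, 1.13 and 1.23 ± 0.0253. The ratios of NEJ638, NEJ654 and NEJ677 were 0.999, 0.865 and 0.683. NEJ687 had the lowest ratio of the named tumours, below each of the 4 NEJ146 sections, which lay between 1.203 and 1.26.

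The regulators around mitosis are counted beside the 8.47% of all genes that were past 2-fold, and counts this small are not read as differing from that share. Of 14 subunits and activators of the anaphase-promoting complex 0 were past 2-fold, with gaps from -0.41 (Anapc11) and -0.39 (Anapc2) to 0.67 (Anapc15) and 0.71 (Anapc1), and their sum ranged from 488 CPM in NEJ677 to 897 CPM in NEJ634. Of 14 transcription factors that act on mitotic genes 1 was past 2-fold, Mybl2 (B-Myb), at 22.6, 28.8, 25.2 and 12.75 ± 0.638 CPM against 1.524, 0.659 and 0.611 CPM, while Lin52 and Nfyb had the lowest gaps at -0.68 and -0.56. Of 8 G1 cyclins and kinases Ccne1 and Cdk4 were past 2-fold, with gaps of 2.47 and 1.49. Ccnd1, cyclin D1, ran the other way, at 20.2, 4.42, 7.47 and 14.7 ± 1.55 CPM in the named tumours against 67.7, 35.02 and 32.03 CPM. Of 10 cell cycle inhibitors 1, Cdkn1a (p21), was past 2-fold with 31.6, 35.9, 32.0 and 17.1 ± 1.54 CPM against 1.504, 5.77 and 2.44 CPM, and Cdkn1c and Rbl2 had the lowest gaps at -2.35 and -1.07.

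Within the named tumours the same lists held 2 of 14, 4 of 14, 1 of 8 and 1 of 10 genes past 1.2-fold, beside 16.3% of all genes, and these counts too are not read as differing from it. The highest gaps of the anaphase-promoting complex were those of Cdc23 at 0.32 and Anapc15 at 0.28, and the lowest those of Anapc4 at -0.18 and Anapc11 at -0.44. Among the transcription factors the repressor E2f7 led with 0.76, followed by Nfyb with 0.48, while E2f1 at -0.41 and E2f2 at -1.57 were lowest. E2f2 had the second highest gap over the other 3 tissues, 0.85. Cdk4 and Cdk2 led the G1 genes with 0.70 and 0.22, and Ccnd3 at -1.07 and Ccnd1 at -1.53 were lowest, Ccnd2 being next to Ccnd1 over the other 3 tissues at -0.68. Of the inhibitors Rbl1 led with 0.57, before Rbl2 with 0.06, and Cdkn2c and Cdkn1c were lowest at -0.65 and -5.12. The p107 gene Rbl1 was also second over the other 3 tissues, with 0.36.

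Markers of blood cells, some of which divide in the tissue, were measured beside the mitosis genes. The 10 erythroid genes summed to 934, 2486, 8646 and 9494 ± 515 CPM in the named tumours, the opposite order to the mitosis genes, and to 103 to 256 CPM in the other 3 tissues. That order is of the sum, since NEJ687 was the highest named tumour for 7 of the 10 genes and NEJ146 for 3. Of the 10, 8 were above the other 3 tissues by 2-fold, Alas2 and Klf1 being the exceptions, and 7 were past 1.2-fold in the order NEJ687 and NEJ146 over NEJ634 and NEJ723. The 6 neutrophil lineage genes were highest in NEJ687, with a sum of 449.6 CPM against 204, 185 and 95.8 ± 19.8 CPM in NEJ634, NEJ723 and NEJ146 and 1.84 to 6.68 CPM in the others. The 8 hepatocyte genes summed to 9588 to 15666 CPM in the named tumours against 68059 to 98647 CPM in the other 3 tissues. The blood lists were thus higher and the hepatocyte list lower in each named tumour than in the other 3 tissues, and their part in the first separation was not tested. Within the named tumours the sums of both blood lists had another order than that of the mitosis genes, and their part in the separation there was not tested either.

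Inside the sections, the mitosis genes were asked whether they vary together from spot to spot. Each gene was compared between the highest and the lowest of 3 parts of the spots, ranked by the share of UMIs from all other mitosis genes, within 10 strata of depth, so that the gene itself was left out of the ranking and spots of similar depth were compared. With all 53 genes in the ranking, the rich and poor parts were least alike in NEJ723 and NEJ687. They held 796 and 850 spots in NEJ723, with median UMIs of 18721 and 17972.5. In NEJ687 they held 1480 and 1594 spots, with medians of 12134.5 and 11593.5. At least 1.2-fold higher in the rich spots of each of the 7 tissues were 33 of 53 genes, against 0.838% of all genes. The shares of all genes given here come from spots ranked by all 53 genes. They include the mitosis genes, which there count with their own UMIs in the ranking. In the 4 named tumours alone the count was 34, against 1.95%, and in the other 3 tissues it was 46, against 2.08%. Tissue by tissue, 44, 40, 44 and 53 genes passed in the named tumours, against 18.3%, 20.5%, 15.2% and 27.2% of all genes. In the other 3 tissues 49, 50 and 47 passed, against 14.7%, 12.2% and 14.4%. The ranking of spots rests on more mitosis UMIs in some tissues than in others, with medians from 3 to 93 per spot, and the sizes of the contrast were not tested between tissues.

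Mki67 was 1.37, 1.29, 1.49 and 1.86-fold higher in the rich spots of NEJ634, NEJ723, NEJ687 and NEJ146, and 1.84, 2.52 and 3.01-fold in NEJ638, NEJ654 and NEJ677. Cenpe, the kinesin-like motor of the kinetochore, reached the largest value in NEJ677, 38 UMIs in rich against 3 in poor spots. The genes with the fewest tissues past 1.2-fold were Pttg1 and Cks2 with 1 tissue each and Spc24 and Smc4 with 3. Pttg1 stood at 0.875-fold in NEJ634, 1.26-fold in NEJ146 and 1.02 to 1.19-fold in the other 5 tissues. Nuf2, by contrast, was 1.38, 1.17, 1.26 and 1.69-fold higher in the named tumours and passed in 6 of 7 tissues.

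How far the pattern reached across a section was measured with the summed genes. The variation that adjacent spots shared, free of counting noise, was 25.3%, 26.7%, 24.4% and 21.3% of the level in the 4 NEJ146 sections. It was 11.5%, 10.1% and 12.5% for NEJ634, NEJ723 and NEJ687, and 11.3%, 7.82% and 6.84% for the 3 tissues with little Afp. In this shared variation the NEJ146 sections were the highest of the 10. Within single spots the variation was larger in NEJ677 and NEJ654, at 62.4% and 53.2%, than in the NEJ146 sections, at 28.7% to 33.5%. At 10 array steps NEJ634 and NEJ723 kept 47.2% and 40.5% of the squared variation of adjacent spots, NEJ638 kept 42.0%, the NEJ146 sections 20.4% to 35.1%, and NEJ687 8.04%. The shares of NEJ677 and NEJ654, 68.0% and 15.6%, are of the 2 smallest adjacent-spot values. These values have no error in the single-section tissues, and tissue areas of different shape were compared.

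**Figure D4:**
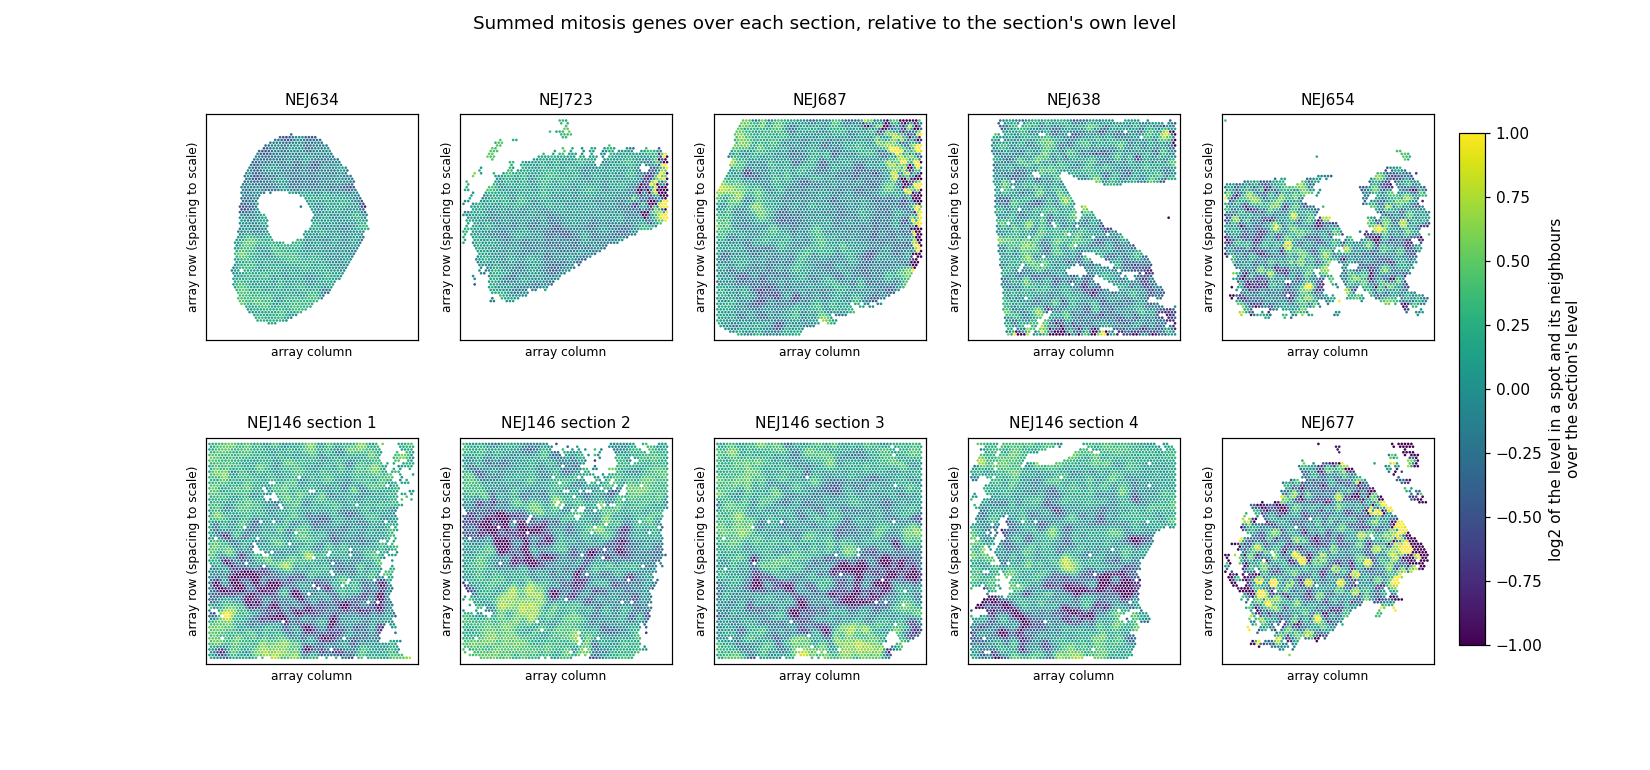
Each point is a tissue spot at its array position, coloured by the log2 level of the summed mitosis genes in the spot and its neighbours over the section's own level. Broad poor and rich zones are seen in the 4 NEJ146 sections and small isolated points in NEJ654 and NEJ677; the strong colours at the right edge of NEJ723 and NEJ687 are spots with few UMIs.

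In NEJ654 and NEJ677 the variation sat in single spots. The squared variation shared by adjacent spots was 2.16% and 1.202% of that within a spot, counting noise removed from both, against 15.9% in NEJ638, 45.0% to 52.5% in NEJ634, NEJ723 and NEJ687 and 55.2% to 63.6% in NEJ146. Spots with at least 10 mitosis UMIs and at least 5 times the section's level numbered 15 of 2699 in NEJ677 and 4 of 2408 in NEJ654, a threshold relative to the section that no spot of the other 8 sections met. The 15 spots of NEJ677 held 446 mitosis UMIs and 9 to 26 of the 53 genes each, with a median of 21. The richest had 25 UMIs of 19 mitosis genes among its 8355.

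The surroundings of those spots were not used to choose them. The 88 spots next to the 15 in NEJ677 were at 285 CPM (95% interval 260 to 313) for the mitosis genes, close to the 269 CPM of the whole section, and the 24 next to the 4 in NEJ654 were at 419.6 CPM (365 to 480) against 389 CPM. The 56 further mitosis genes were at 550.1 CPM in the 15 spots (462 to 649.9) against 196 CPM in the section. The DNA replication genes were at 478 CPM (397 to 572) against 394 CPM, a 1.21-fold difference. The hepatocyte genes were at 58771 CPM against 68059 CPM, and the erythroid genes at 219 CPM (165 to 285) against 256 CPM. In NEJ654 the replication genes were at 859 CPM (676 to 1077) in the 4 spots against 449 CPM.

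**Figure D5:**
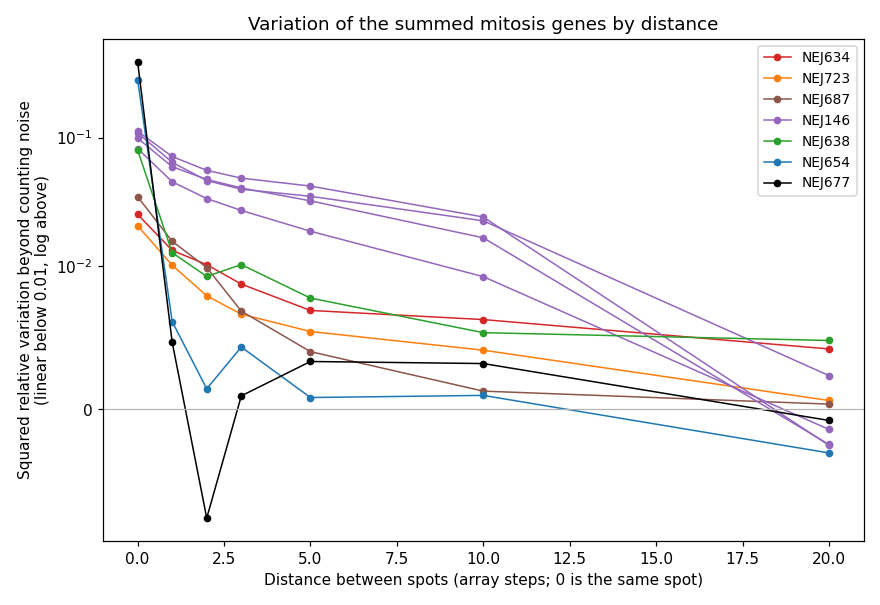
Squared relative variation of the summed mitosis genes beyond counting noise (y axis, linear below 0.01 and log above) against the distance between spots in array steps, 0 being the same spot; each line is 1 section. NEJ677 and NEJ654 start highest and fall near 0 by the first step, while the 4 NEJ146 sections fall slowly to 10 steps.

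Over spots, the summed mitosis genes went with the further mitosis genes at a noise-corrected correlation of 0.92 to 1.011 in the 10 sections, n being 1890 to 4878 spots that share a library and neighbours. With the replication genes it was 0.89 ± 0.0187 in NEJ146 (SD, n = 4), and 0.82, 0.86 and 0.87 for NEJ634, NEJ723 and NEJ687. It was 0.58, 0.43 and 0.52 for NEJ638, NEJ654 and NEJ677. Estimates above 1 come from removing an estimated noise term. In rich over poor spots the replication genes summed to 1.51-fold in NEJ146, 1.15 to 1.24-fold in the other named tumours and 1.13 to 1.17-fold in the rest.

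Other cell types moved with the mitosis genes inside some sections. Hepatocyte genes were lower in mitosis-rich spots, at 0.525-fold in NEJ146, 0.739-fold in NEJ723, 0.863 and 0.932-fold in NEJ634 and NEJ687, and 0.933 to 0.989-fold in the other 3 tissues. The 5 hepatoblastoma genes summed to 2.03-fold in NEJ146, 1.295-fold in NEJ634, 1.03-fold in NEJ687 and 0.960-fold in NEJ723, and to 1.21, 1.02 and 1.39-fold in NEJ638, NEJ654 and NEJ677. The last 3 folds rest on few counts, since these genes had only 1026, 309 and 294 UMIs in those whole sections. In the named tumours these sums were mostly Afp, which held 2023 of 2143 CPM in NEJ146. The imprinted progenitor marker Dlk1 was higher in the rich spots of each, at 2.28, 1.29 and 1.43-fold in NEJ634, NEJ723 and NEJ687. In these 3 tissues Gpc3 was at 1.36, 1.08 and 0.969-fold, Igf2 at 1.25, 0.933 and 1.12-fold and Epcam at 1.95, 1.196 and 0.704-fold. In the rich spots of NEJ146, Afp was at 2.06-fold and Dlk1 at 5.38-fold. Gpc3 was at 1.56-fold and Igf2 at 1.26-fold there, while Epcam was at 0.831-fold. In the same spots endothelial, stromal and bile duct genes were at 0.753, 0.648 and 0.376-fold. In NEJ634 the neutrophil lineage genes were at 0.437-fold, the macrophage genes at 0.532-fold, the endothelial genes at 0.749-fold and the bile duct genes at 1.49-fold. The neutrophil lineage genes were at 0.785-fold in NEJ723 but at 1.40-fold in NEJ687 and 1.24-fold in NEJ146. Erythroid genes were 1.40-fold higher in the rich spots of NEJ723, 1.19-fold in NEJ687 and 0.931-fold in NEJ634, and in the NEJ146 sections they ran from 0.635 to 1.41-fold. The correlation of the erythroid sum with the mitosis genes lay between -0.09 and 0.21 in the 10 sections. The part of these cell types in the pattern of the mitosis genes was not tested.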

How the data were processed

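Visium sections of 7 mouse tissues were analysed from the matrices that the authors deposited, which hold raw UMI counts per gene and spot. The submitters' processing notes name Space Ranger 1.3 with mm10 for the 6 single-section tissues and Cell Ranger 6.0 for NEJ146, while the study's methods name another Space Ranger release. Spots entered where the deposited position file calls them tissue. For NEJ146, without such a file here, spots with 8000 or more UMIs were taken and placed by barcode, since the barcodes had the same array positions in the other 6 sections. Counts were summed per section and divided by all UMIs (CPM), and NEJ146 was the mean of 4 sections. Groups were the tissues in the labels. Since the labels give all tissues the same kind and make none of them replicates, no test between tissues was run. The gap between 2 sets of tissues was the lowest log2(CPM + 1) of one set minus the highest of the other, called from 2-fold, or from 1.2-fold within the named tumours, and read against the 12648 genes whose mean over the tissues reached 1 CPM. Fold changes on this scale understate those of low genes. In the spot contrast 0.5 UMI was added to a single gene's summed UMIs in the rich and in the poor spots, and nothing to the sums of lists.

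The share of variation common to spots at a distance was the sum over spot pairs of products of observed minus expected counts, divided by that of products of expected counts. Noise-corrected correlations subtract the Poisson variance from each list. Sections entered the spot contrast where at least 50% of tissue spots held 3 or more mitosis UMIs, which was met in all 10. The 2-fold gap call, the variation shared by adjacent spots and the noise-corrected correlation were tested on simulated data. So was the fold between rich and poor spots, and the other measures were not. No doublet caller was run and no spot was filtered further. PCR duplicates were removed by UMI upstream, and intervals cover counting error only. The use of strand in the counting is not given in the sources used here, and 13 of the 53 genes overlap another counted gene, in each case on the opposite strand (GENCODE M21, GRCm38), so their reads could not be told apart without strand. The mitosis genes and all lists were chosen with earlier results of these data known. Genes given in full were, per functional group, the one with the most UMIs, Mki67 and Top2a, the 3 widest and 3 narrowest gaps of each comparison and those short of 2-fold, and of other lists the 2 widest and 2 narrowest gaps. A gene that this rule names is not reported here. Cdk1 and other genes outside this rule were added after their values were seen. Alternatives covered spot minimums, scaling, pseudocount, thresholds and left-out sections. Python 3.11.15 with NumPy 2.4.6, pandas 2.3.3 and SciPy 1.17.1 was used.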

Additional observations from a re-analysis of the deposited data

Results flagged for a closer look

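Of the 53 genes and their sum, 4 genes had 1 of the 4 NEJ146 sections set far from the other 3, by Dixon's ratio, which chance alone gives in about 1 of 20 groups. Section 4 was the high one for Mki67, at 91.1 CPM against 77.8 to 79.9 CPM, for Top2a, at 75.7 CPM against 60.4 to 62.3 CPM, and for Cenpa, at 89.6 CPM against 70.9 to 73.7 CPM. Section 2 was the high one for Bub3, at 38.7 CPM against 36.2 to 36.4 CPM. Section 4 also had the highest summed level of the 4.

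Spots outside the called tissue held mitosis genes at nearly the tissue's own level. The summed level there was 2944 CPM in NEJ634, 2883 CPM in NEJ723, 2322 CPM in NEJ687, 760.6 CPM in NEJ638, 378 CPM in NEJ654 and 282 CPM in NEJ677, against 3204, 2884, 2114, 749.8, 389 and 269 CPM over tissue. These spots carried 38.1%, 37.5%, 6.81%, 27.3%, 43.0% and 39.5% of all UMIs of their section, and their median UMIs were higher next to the tissue than further off in each of the 6. In 4 of the 6 the spots next to the tissue call held more UMIs at the median than the tissue spots: 20800 against 18742 in NEJ723, 14007 against 12133.5 in NEJ687, 18512 against 12535 in NEJ638 and 20253.5 against 17062 in NEJ654. Their part in the variation between tissue spots was not tested.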

How the results depend on the processing

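Of 116 values of the main results under the alternatives, 98 stayed within 1.5 times the count or within the spread of the NEJ146 sections, 18 moved and 0 reversed. The order of the summed levels was not among these values, and its step from NEJ687 to NEJ146 turned under median-of-ratios size factors. Median-of-ratios size factors moved the genes past 1.2-fold within the named tumours to 24, the replication genes there to 2, the summed gaps to 1.19 and 0.23, and Kendall's coefficient to 0.63. With a pseudocount of 5 CPM the genes past 2-fold were 27, the replication genes 11 and the further mitosis genes 8. At 1.5-fold in place of 2-fold 36 replication and 43 further mitosis genes passed (17.0% of all genes), and at 3-fold 13 mitosis, 4 replication and 9 further mitosis genes (2.82%). Within the named tumours 29 replication genes had any gap above 0, and at 1.5-fold 12 mitosis genes and 1 replication gene passed (5.07%). At 1.5-fold in each of the 7 tissues, 0 mitosis genes passed the spot contrast, each left out of its own ranking, where 47 did at 1.1-fold. The shares of all genes, 0.174% and 1.68%, include the mitosis genes ranked with their own UMIs, so count and share are not measured alike. Without NEJ146 the summed gap over the other 3 tissues was 1.49. Leaving out 1 NEJ146 section gave 41 to 44 genes past 2-fold and 39 to 40 past 1.2-fold. Over all genes with a UMI, 4.96% and 10.8% were past 2-fold and 1.2-fold. Of 1378 gaps of single genes 239 moved by more than the NEJ146 SD and 1 reversed, that of Nusap1 within the named tumours, to -0.00828 under median-of-ratios size factors. Tissue spots with at least 500 UMIs (43 and 40 genes) and the spot contrast in the 4 named tumours alone (34) were chosen after seeing the data. No paired analysis was possible because only NEJ146 has more than 1 section. The cause of these shifts was not tested. Depth limits single genes in NEJ654 and NEJ677, where the rarest had 37 and 18 UMIs.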
